A study of Arabidopsis thaliana with 22 samples.

Results

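The 10 genes described here encode ethylene response factors (ERFs) with a place in defence signalling of Arabidopsis thaliana: ERF1 (AT3G23240), ORA59 (AT1G06160), ERF1A (AT4G17500), ERF2 (AT5G47220), ERF5 (AT5G47230), ERF6 (AT4G17490), ERF104 (AT5G61600), ERF105 (AT5G51190), ERF4 (AT3G15210) and ERF11 (AT1G28370). They were taken by locus identifier from the deposited count tables, and all 10 were present in both, among 23318 genes listed for leaves and 33318 for seedlings. The leaf libraries came from 3-week-old plants, 2 of the wild type Col-0 and 2 of OXAITF1, a line named for overexpression of the trihelix transcription factor AITF1. The seedling libraries came from Col-0 and from the double mutant aitf1-1asr3-1, which by its name carries mutant alleles of AITF1 and of the related trihelix gene ASR3, sampled at 0, 1 and 3 h with 3 libraries for each genotype and time. The seedlings are labelled 10 days old, while the growth text speaks of 14 days and the extraction text of leaves for every sample. The agent applied at 0 h is not named in the sources used here, and no untreated seedlings at 1 or 3 h were analysed, so that treatment, handling and time of day cannot be told apart. The promoter that drives AITF1 in OXAITF1 and the number of lines used are not given either.

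ERFs are plant transcription factors that share an AP2-type DNA-binding domain, and many of them recognise the GCC box, a short GC-rich element in the promoters of pathogenesis-related genes. Activating members such as ERF1 and ORA59 join the ethylene and jasmonate pathways and switch on defensins and chitinases, while members with an EAR motif, such as ERF4 and ERF11, repress transcription. Several ERF genes respond within minutes to hours to microbial patterns, wounding, cold and osmotic stress, and ERF104 and ERF6 proteins are substrates of the mitogen-activated protein kinases MPK6 and MPK3.

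Each of the 10 genes is annotated in TAIR10.1 with 1 exon and no intron, so reads from them fall in a single block. To show what lies before the genes, the 250 bases ahead of each annotated gene start were read from the TAIR10.1 genome and searched on both strands for short elements known from defence promoters. These were the GCC box GCCGCC, the G box CACGTG, the W box core TTGAC, the element CGCGTT of calmodulin-binding CAMTA factors and the GT element GGTTAA of trihelix factors. A GCC box lay in 2 of 10 windows, those of ORA59 and ERF11, and in 1.87% of 27443 windows of the whole annotation. A G box lay in 4 of 10 windows, those of ORA59, ERF1A, ERF2 and ERF4, and in 6.49% of all windows. The W box core lay in 6 of 10 windows against 44.9% of all, GGTTAA in 1 of 10, that of ERF4, against 14.6%, and CGCGTT in 0 of 10 against 2.59%. A match in these letters is a description and not a binding site.

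5 windows are printed 5′ to 3′ on the strand of the gene, with capitals for the matched elements (GTCAA being TTGAC on the other strand). ORA59 (chr1:1882657-1882906, plus strand) and ERF11 (chr1:9956981-9957230, minus strand) are shown because they hold the GCC box and had the 2 largest rises at 1 h in the wild type. The rank of ORA59 was narrow, with a log2 fold change of 2.48 (SE 0.27) against 2.44 (SE 0.31) for ERF1. In aitf1-1asr3-1 ERF1 rose more than ORA59 at 1 h, and the ERF1 window held no GCC box. ERF1A (chr4:9758953-9759202, plus strand) and ERF2 (chr5:19172957-19173206, minus strand) are shown because they share a stretch of letters, and ERF104 (chr5:24767733-24767982, minus strand) because it was the one gene of the 10 not called at 1 h in either genotype; its window held none of the 5 elements, as did those of ERF1 and ERF6.
ORA59 upstream: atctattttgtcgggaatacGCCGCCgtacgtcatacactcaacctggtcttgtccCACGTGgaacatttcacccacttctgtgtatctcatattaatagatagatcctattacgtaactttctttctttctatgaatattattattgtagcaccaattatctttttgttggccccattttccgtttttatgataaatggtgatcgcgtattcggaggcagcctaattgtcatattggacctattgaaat
ERF11 upstream: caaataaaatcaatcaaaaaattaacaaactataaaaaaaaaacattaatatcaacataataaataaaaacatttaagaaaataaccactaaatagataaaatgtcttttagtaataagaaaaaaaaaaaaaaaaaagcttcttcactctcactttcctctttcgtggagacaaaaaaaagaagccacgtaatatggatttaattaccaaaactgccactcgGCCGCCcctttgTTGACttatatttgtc
ERF1A upstream: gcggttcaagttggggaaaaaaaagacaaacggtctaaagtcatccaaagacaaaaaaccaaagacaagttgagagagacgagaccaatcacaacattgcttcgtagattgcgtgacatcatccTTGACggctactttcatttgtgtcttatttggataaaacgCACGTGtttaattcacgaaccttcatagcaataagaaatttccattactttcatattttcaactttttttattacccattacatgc
ERF2 upstream: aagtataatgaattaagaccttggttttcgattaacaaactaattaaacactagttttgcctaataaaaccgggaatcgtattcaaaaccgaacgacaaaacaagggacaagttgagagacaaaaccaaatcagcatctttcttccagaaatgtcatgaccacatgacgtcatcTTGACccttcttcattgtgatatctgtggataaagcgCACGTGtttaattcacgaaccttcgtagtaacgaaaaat
ERF104 upstream: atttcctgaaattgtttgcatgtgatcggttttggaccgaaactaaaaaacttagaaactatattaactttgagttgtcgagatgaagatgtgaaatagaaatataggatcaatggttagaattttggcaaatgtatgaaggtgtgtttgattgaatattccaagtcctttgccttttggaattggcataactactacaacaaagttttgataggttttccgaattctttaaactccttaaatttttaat

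The GCC box of ORA59 began 230 bases before the annotated gene start and that of ERF11 began 28 bases before it. The windows of ERF1A and ERF2 held an identical run of 26 bases, cgCACGTGtttaattcacgaaccttc, which includes the G box and began 88 bases before the start of ERF1A and 41 before that of ERF2. Among the 45 pairs of the 10 windows the next longest identical run was 12 bases and the median was 8. In both windows a W box core lay ahead of the shared run.

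The leaf libraries held 15.3 to 19.4 M counts (M for mega) and the seedling libraries 17.1 to 21.6 M, so that 1 count was worth 0.0445 to 0.0747 CPM (counts per M counts of a library, scaled with TMM factors) in any library. Trihelix locus AT3G11100, which the annotation used here does not name as AITF1, was followed because it was known to stand apart in OXAITF1 leaves, so its level there is no independent check of the labels. It stood at 14.4 and 14.4 CPM in wild-type leaves and at 2954 and 3839 CPM in OXAITF1 leaves. In aitf1-1asr3-1 seedlings it stood at 23.6 to 43.9 CPM against 46.5 to 70.4 CPM in the wild type, and ASR3 at 5.76 to 7.97 against 9.70 to 13.7 CPM, so neither transcript was absent from the double mutant. The 6 root markers summed to 44.3 to 119 CPM in seedlings, and the 3 of them listed in the leaf table to 0.422 to 2.76 CPM, and the photosynthetic markers were high in both. All 10 ERF genes passed the low-count filter in both tissues, in which 18639 leaf genes and 21028 seedling genes were tested. A gene was called at an edgeR quasi-likelihood adjusted p under 0.05. The labels do not say that replicates were separate plants, so the spread behind each p-value is that between libraries and may be technical.

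In wild-type seedlings 9 of the 10 ERF genes rose between 0 and 1 h, and all 10 stood above 0 h at 3 h. Of all tested genes, 25.2% were called higher at 1 h and 15.4% at 3 h. The median log2 fold change of the 10 genes was 1.42 at 1 h and 1.56 at 3 h, against 0.05 and -0.00 over all tested genes. In aitf1-1asr3-1 seedlings 8 of the 10 rose by 1 h, with 20.3% of all tested genes called higher, and all 10 by 3 h, with 13.2% called higher. 3 kinds of time course occurred in both genotypes. ERF11 peaked at 1 h and had come part of the way down by 3 h, and ERF104 rose only after 1 h. The other 8 genes had higher means at 1 h and stayed above their 0 h means at 3 h.

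**Figure D1:**
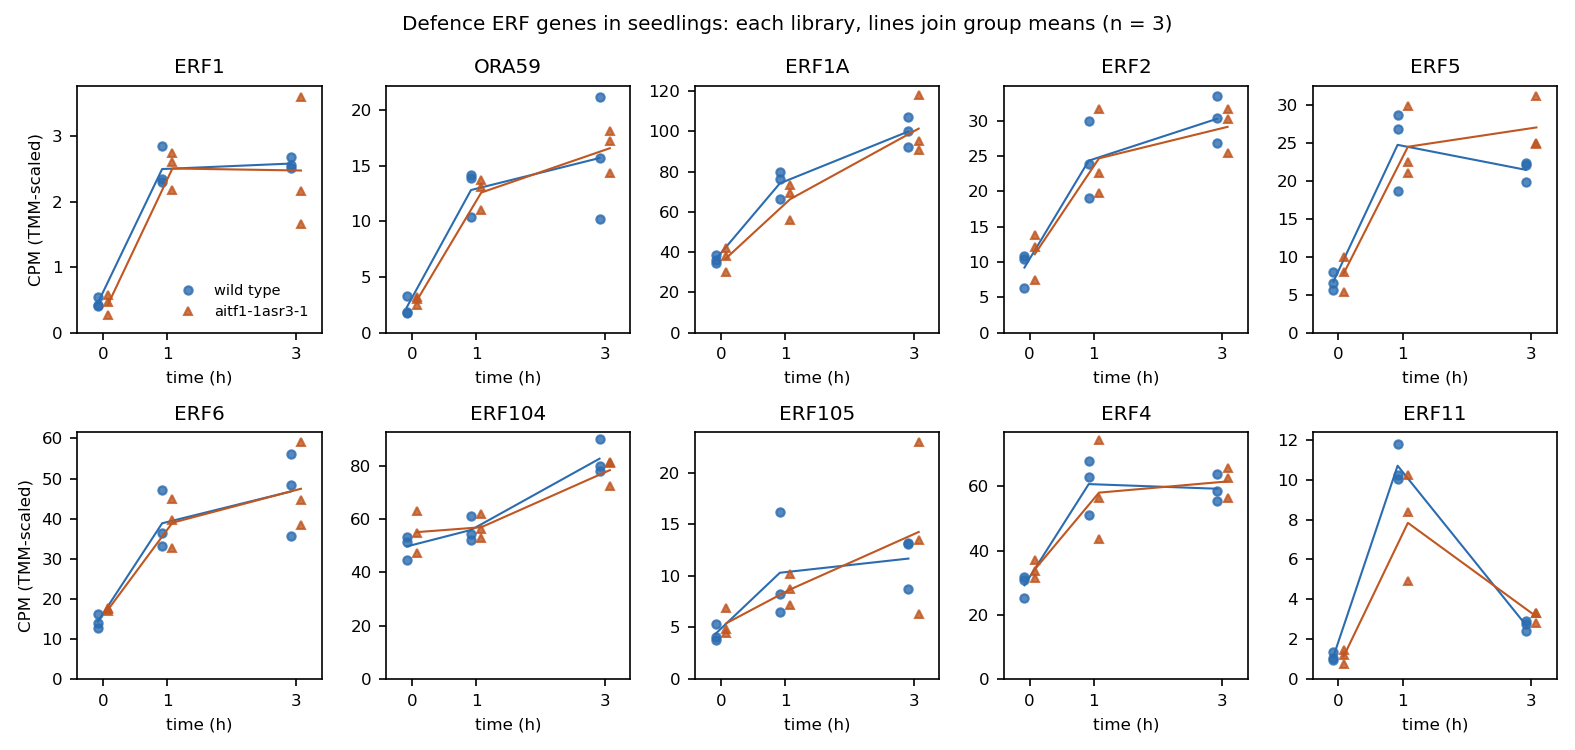
TMM-scaled CPM of the 10 ERF genes in the 18 seedling libraries against time in hours, with circles for wild-type libraries, triangles for aitf1-1asr3-1 libraries and lines through the group means of 3 libraries. ERF11 peaks at 1 h, ERF104 is flat until 1 h, and the points of the genotypes lie among each other at most times.

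Among the activators of ethylene and jasmonate defence, ERF1, which is induced by both hormones together, was the lowest of the 10 genes at 0 h, with 0.400, 0.544 and 0.415 CPM in the 3 wild-type libraries. It stood at 2.3, 2.34 and 2.85 CPM at 1 h and at 2.51, 2.67 and 2.56 CPM at 3 h. The 0 h libraries lay apart from all later ones, and the later times overlapped. ERF1 rose 5.41-fold by 1 h (log2 fold change 2.44, SE 0.31, edgeR adjusted p = 1.13e-05). In aitf1-1asr3-1 it went from 0.468, 0.267 and 0.569 CPM to 2.74, 2.18 and 2.6 CPM at 1 h (log2 fold change 2.52, SE 0.31, edgeR adjusted p = 1.25e-05). At 3 h the double-mutant libraries were spread from 1.66 to 3.60 CPM around a mean of 2.47 ± 1.01 (SD, n = 3).

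ORA59, an integrator of jasmonate and ethylene signals that activates the defensin gene PDF1.2, stood at 1.72, 3.26 and 1.82 CPM in the wild type at 0 h. It reached 10.4, 14.1 and 13.9 CPM at 1 h and 10.2, 15.7 and 21.2 CPM at 3 h. The 0 h libraries were below all later ones, and the 3 h libraries spanned those of 1 h. The log2 fold change was 2.48 (SE 0.27, edgeR adjusted p = 2.05e-06) at 1 h and 2.78 (SE 0.27, edgeR adjusted p = 2.44e-06) at 3 h, the largest of the 10 genes at 3 h in this genotype. In aitf1-1asr3-1 ORA59 stood at 2.52, 2.98 and 3.23 CPM at 0 h, at 13.1, 11 and 13.7 CPM at 1 h and at 18.1, 14.4 and 17.2 CPM at 3 h. These groups did not overlap, while the step from 1 to 3 h was not called (log2 fold change 0.40, SE 0.22, edgeR adjusted p = 0.206) except in a fit of these libraries only (edgeR adjusted p = 0.0481).

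ERF1A, also called ERF-1, is an activator that binds the GCC box. It kept rising after 1 h. In the wild type its libraries held 36.3, 34.4 and 38.5 CPM at 0 h, 79.6, 66.5 and 76.3 CPM at 1 h and 107, 100.3 and 92.2 CPM at 3 h. The 3 times did not overlap. The step from 0 to 1 h was 1.03 on the log2 scale (SE 0.13, edgeR adjusted p = 1.05e-05). The step from 1 to 3 h was 0.43 (SE 0.13, edgeR adjusted p = 0.0209), and this second call was lost without wild-type 1 h replicate 2 (edgeR adjusted p = 0.0668) or without wild-type 3 h replicate 1 (edgeR adjusted p = 0.0833). In aitf1-1asr3-1 the libraries held 42.0, 30.2 and 38.2 CPM at 0 h, 56.1, 69.5 and 73.2 CPM at 1 h and 95.2, 90.7 and 118 CPM at 3 h, again without overlap, and the later step was 0.61 (SE 0.13, edgeR adjusted p = 0.00266).

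ERF2, a GCC-box activator tied to jasmonate responses, stood at 10.8, 6.38 and 10.4 CPM in the wild type at 0 h, at 19.1, 23.9 and 30.0 CPM at 1 h and at 33.5, 26.8 and 30.4 CPM at 3 h. Only the 0 h libraries lay apart. ERF2 rose 2.65-fold by 1 h (log2 fold change 1.4, SE 0.24, edgeR adjusted p = 0.000188). In the double mutant the values were 12.1, 7.39 and 13.8 CPM at 0 h, 19.8, 22.6 and 31.6 CPM at 1 h and 30.2, 25.5 and 31.7 CPM at 3 h, and the 1 h rise measured 1.16 on the log2 scale (SE 0.24, edgeR adjusted p = 0.00115). As in the wild type, the 1 and 3 h libraries overlapped.

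ERF5 and ERF6 are paralogous regulators of chitin, pathogen and osmotic stress responses. ERF5 stood at 5.61, 8.06 and 6.49 CPM in the wild type at 0 h, at 28.7, 18.7 and 26.9 CPM at 1 h and at 19.8, 22.4 and 22.2 CPM at 3 h. Its rise by 1 h, 3.67-fold (log2 fold change 1.88, SE 0.21, edgeR adjusted p = 3.67e-06), was the largest among the 4 genes ERF5, ERF6, ERF104 and ERF105. In aitf1-1asr3-1 ERF5 went from 10.0, 7.97 and 5.41 CPM to 21.1, 22.5 and 29.9 CPM at 1 h and 31.3, 24.9 and 25.1 CPM at 3 h. In both genotypes the later libraries lay above those of 0 h.

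ERF6 went from 14.0, 12.8 and 16.1 CPM at 0 h to 47.0, 33.1 and 36.4 CPM at 1 h and 48.5, 56.2 and 35.7 CPM at 3 h in the wild type. The 0 h libraries did not overlap with the later ones. The log2 fold change was 1.44 (SE 0.19, edgeR adjusted p = 1.34e-05) at 1 h and 1.71 (SE 0.19, edgeR adjusted p = 9.8e-06) at 3 h. In the double mutant ERF6 stood at 17.7, 17.4 and 16.9 CPM at 0 h, at 32.6, 39.6 and 44.8 CPM at 1 h and at 59.2, 44.7 and 38.5 CPM at 3 h, and the 1 h rise measured 1.17 on the log2 scale (SE 0.18, edgeR adjusted p = 0.000123).

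ERF104, whose protein is released from MPK6 after flagellin treatment, was the late riser. Its wild-type libraries held 44.6, 53.1 and 51.6 CPM at 0 h, 61.1, 54.6 and 52.1 CPM at 1 h and 79.8, 90.2 and 78.0 CPM at 3 h. The 0 and 1 h libraries overlapped, and all 3 h libraries lay above them. At 1 h the log2 fold change was 0.17 (95% interval -0.05 to 0.39, edgeR adjusted p = 0.194), and between 1 and 3 h ERF104 rose by 0.56 (SE 0.10, edgeR adjusted p = 0.00112). In aitf1-1asr3-1 the libraries held 63.0, 54.9 and 47.4 CPM at 0 h, 56.2, 61.9 and 52.8 CPM at 1 h and 81.3, 81.2 and 72.5 CPM at 3 h, and the later step was 0.46 (SE 0.10, edgeR adjusted p = 0.00449).

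ERF105, a gene of cold and stress responses, had the largest ratio between replicates of any seedling group, 3.62 in aitf1-1asr3-1 at 3 h. By the median ratio over the 6 seedling groups ERF2 was more spread (1.59 against 1.53). In the wild type ERF105 stood at 3.78, 4.05 and 5.35 CPM at 0 h, at 16.1, 6.48 and 8.27 CPM at 1 h and at 13.1, 13.2 and 8.71 CPM at 3 h. The 0 h libraries were the lowest, but 1 library decided most of the 1 h mean. The log2 fold change was 1.23 (SE 0.40, edgeR adjusted p = 0.0179) at 1 h, and the call was lost without wild-type 1 h replicate 1 (log2 fold change 0.71, edgeR adjusted p = 0.161) or without wild-type 0 h replicate 1 or 2 (edgeR adjusted p = 0.0648 and 0.0514). The wild-type call at 3 h (log2 fold change 1.41, SE 0.40, edgeR adjusted p = 0.0163) was lost without 0 h replicate 1 or 3 h replicate 2 (edgeR adjusted p = 0.067 and 0.0596).

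In aitf1-1asr3-1 ERF105 held 6.85, 4.85 and 4.46 CPM at 0 h, 8.73, 10.2 and 7.14 CPM at 1 h and 22.9, 13.5 and 6.33 CPM at 3 h. The 3 h libraries differed 3.62-fold among themselves and overlapped with 0 h. The 1 h change was not called (log2 fold change 0.70, 95% interval -0.14 to 1.53, edgeR adjusted p = 0.173), although a fit of the 0 and 1 h double-mutant libraries only called it (edgeR adjusted p = 0.0242). The 3 h call (log2 fold change 1.42, SE 0.39, edgeR adjusted p = 0.0159) was lost without 3 h replicate 1 (log2 fold change 0.89, edgeR adjusted p = 0.119) or without 0 h replicate 2 or 3 (edgeR adjusted p = 0.0623 and 0.0642). ERF105 lies inside the annotated gene AT5G51180 on the opposite strand. The strand setting of the counting is not given, so how reads of the overlapping genes were assigned is not known. AT5G51180 stood at a mean of 44.8 CPM at 0 h, 30.7 at 1 h and 41.7 at 3 h in the wild type, below its 0 h mean at the time when the ERF105 mean was above.

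The repressors differed in their time course. ERF4, an EAR-motif repressor of ethylene and jasmonate responses, held 25.3, 31.6 and 30.7 CPM in the wild type at 0 h, 63.0, 51.0 and 67.9 CPM at 1 h and 58.4, 63.8 and 55.4 CPM at 3 h. The 2 later times overlapped with each other and not with 0 h. ERF4 rose 2.07-fold by 1 h (log2 fold change 1.05, SE 0.16, edgeR adjusted p = 4.54e-05). In aitf1-1asr3-1 it went from 37.2, 33.6 and 31.5 CPM to 43.4, 56.3 and 74.3 CPM at 1 h and 65.8, 56.2 and 62.5 CPM at 3 h, and the 1 h rise measured 0.77 on the log2 scale (SE 0.15, edgeR adjusted p = 0.000956).

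ERF11, an EAR-motif repressor that acts on ethylene synthesis genes, was the one gene of the 10 called lower from 1 to 3 h. In the wild type it held 0.973, 1.04 and 1.35 CPM at 0 h, 10.06, 11.8 and 10.2 CPM at 1 h and 2.78, 2.90 and 2.40 CPM at 3 h. The 3 times did not overlap. ERF11 rose 9.49-fold by 1 h (log2 fold change 3.25, SE 0.26, edgeR adjusted p = 1.8e-07), the largest rise of the 10 genes, and then fell by 1.99 on the log2 scale (SE 0.23, edgeR adjusted p = 3.47e-05) to a level still above 0 h (log2 fold change 1.26, SE 0.28, edgeR adjusted p = 0.00405). In the double mutant ERF11 held 1.46, 0.757 and 1.19 CPM at 0 h, 4.91, 8.36 and 10.2 CPM at 1 h and 3.29, 2.80 and 3.31 CPM at 3 h. There it rose by 2.80 (SE 0.26, edgeR adjusted p = 8.88e-07) and fell by 1.32 (SE 0.23, edgeR adjusted p = 0.000822) on the log2 scale.

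**Figure D2:**
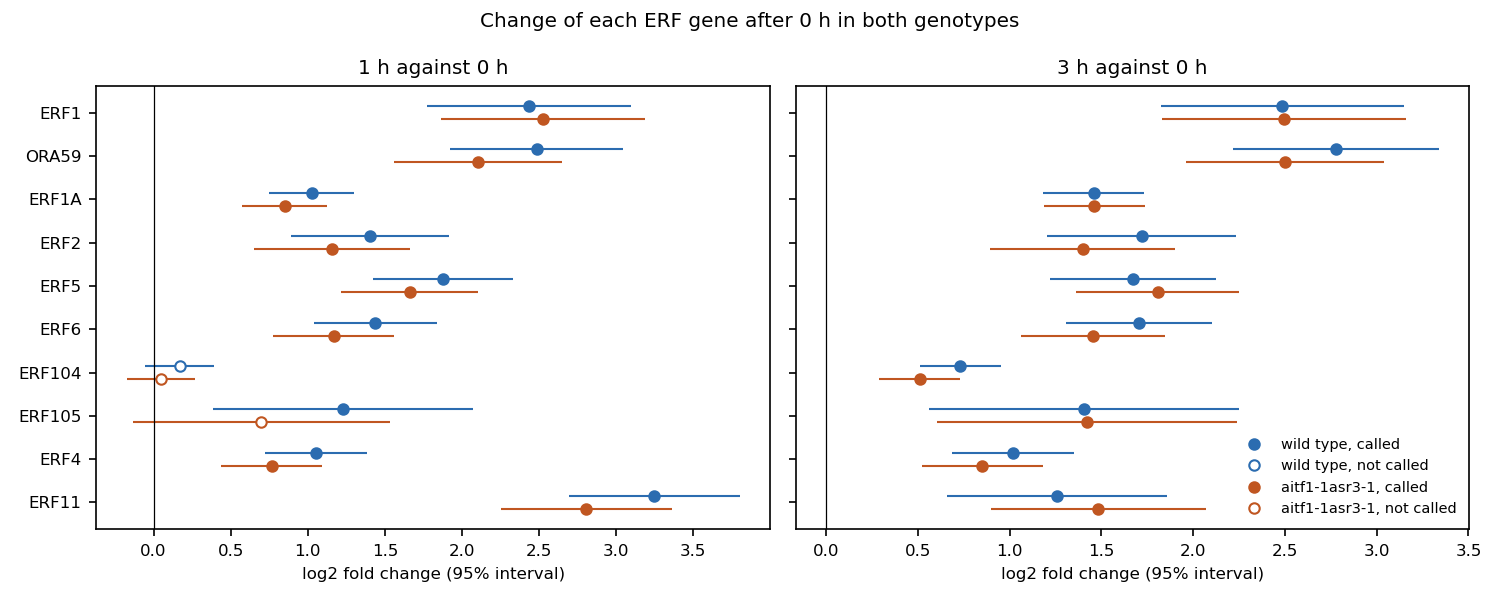
Log2 fold change at 1 h and at 3 h against 0 h for each ERF gene, with 95% intervals, in wild-type (blue) and aitf1-1asr3-1 (orange) seedlings. Open circles mark changes that were not called: ERF104 at 1 h in both genotypes and ERF105 at 1 h in the double mutant.

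From 1 to 3 h, ERF1A and ERF104 were called higher and ERF11 lower in both genotypes, so that 3 of 10 genes were called where 24.7% of all tested genes were called in the wild type and 26.0% in the double mutant. Markers of photosynthetic cells fell in the wild type over the first hour, 6 of 6 called lower, their sum being 6211 to 8393 CPM at 0 h and 3417 to 5707 CPM at 1 h. Guard cell markers were called lower for 2 of 4, with sums of 68.8 to 99.5 CPM at 0 h and 34.6 to 59.8 CPM at 1 h. Root markers were called higher for 4 of 6, with sums of 44.3 to 81.7 CPM at 0 h and 93.2 to 119 CPM at 1 h. In bulk samples fewer cells of a type and less RNA per cell cannot be told apart, and the part of these markers in the ERF changes was not tested. In aitf1-1asr3-1 the markers moved the same way without overlap, the photosynthetic sum from 7004 to 8858 CPM at 0 h to between 5306 and 5899 CPM at 1 h and the root sum from 59.0 to 79.1 CPM to between 90.4 and 101.3 CPM. By the test, 2 of 6 photosynthetic and 1 of 4 guard cell markers were called lower and 1 of 6 root markers higher there.

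The question put by the double mutant is whether mutant alleles of both trihelix genes change the level or the induction of these genes. Transcripts of ASR3 and AT3G11100 were still present, so a full loss was not shown. No ERF gene was called between the genotypes: 0 of 10 at 0 h, at 1 h and at 3 h, where 0.357%, 0.262% and 0.276% of all tested genes were called by edgeR. The same count was 0 of 10 by DESeq2 at each time, and 0 of 10 had an unadjusted edgeR p under 0.05. A background this low means that few genes of any kind were called in this contrast. The mean over the 3 times gave 0 of 10 called against 1.11% of all tested genes. The log2 differences at single times ran from -0.45 to 0.35, and precision differed by gene. At 0 h the 95% interval ran from -0.08 to 0.37 for ERF104, from -0.26 to 0.29 for ERF1A and from -0.59 to 1.16 for ERF105, the widest of all.

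ERF11 at 1 h came nearest to a difference. The wild type held 10.06, 11.8 and 10.2 CPM and the double mutant 4.91, 8.36 and 10.2 CPM, and the groups overlapped by 1 library. The difference was -0.45 on the log2 scale (95% interval -0.90 to 0.00, edgeR adjusted p = 0.759). The libraries did not overlap, with the double mutant higher, for ERF6 at 0 h and for ERF5 at 3 h, which is 1 of 10 genes at each of these times where 5.11% and 6.77% of all tested genes had such separated groups. The log2 difference was 0.28 (95% interval -0.13 to 0.68) for ERF6 and 0.34 (95% interval -0.08 to 0.75) for ERF5.

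**Figure D3:**
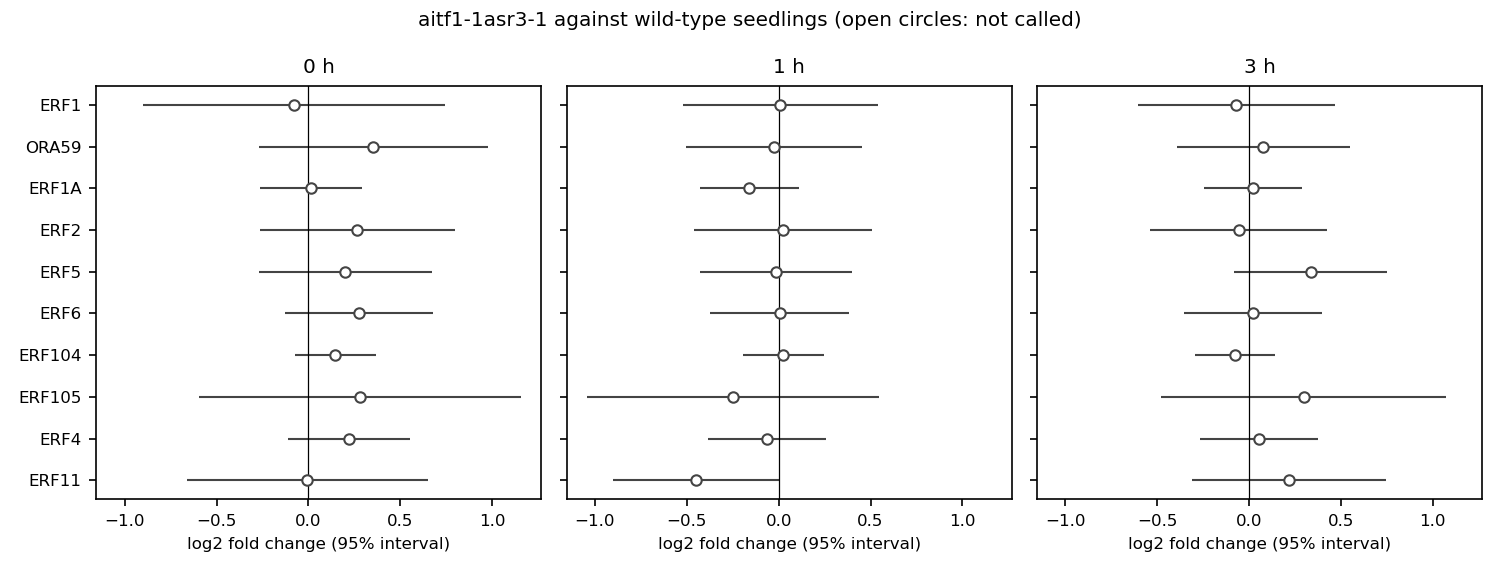
Log2 fold change of aitf1-1asr3-1 against wild-type seedlings for each ERF gene at 0, 1 and 3 h with 95% intervals. Intervals include 0 for all 10 genes at each time (the interval of ERF11 at 1 h reaches 0.00), and they are widest for ERF105 and for ERF1 at 0 h.

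Whether the change over time itself differed between genotypes was tested as an interaction. None of the 10 genes was called at 1 h or at 3 h by edgeR or by DESeq2, the background being 0% of tested genes by either tool, and 0 of 10 had an unadjusted edgeR p under 0.05 where 474 and 853 of all 21028 genes had one. At 1 h the interaction estimate was below 0 for 9 of 10 genes, from -0.53 for ERF105 to 0.09 for ERF1, with intervals that reached 1.71 log2 units from 0. The estimates share the same 0 h libraries, and at 3 h they were below 0 for 5 of 10. Replicate 1 of the double mutant at 0 h and its replicate 3 at 1 h were each the highest of their group for 7 of the 10 genes. The same count held for replicate 2 of the wild type at 3 h.

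Compared per kilobase of exon, the order of the genes changed over time. In wild-type seedlings at 0 h ERF104 led with a mean of 35.8 ± 3.28 CPM per kb (SD, n = 3), overlapping with ERF1A at 30.6 ± 1.70 CPM per kb, and ERF11 and ERF1 were last at 0.944 ± 0.170 and 0.459 ± 0.0797 CPM per kb. At 1 h ERF1A led with 62.4 ± 5.76 CPM per kb and overlapped with ERF4, and at 3 h it led alone with 84.0 ± 6.34 CPM per kb. ERF11 was the lowest of the 10 at 3 h in the wild type. The double mutant had the same leaders at each time. The repressors ERF4 and ERF11 together made 21.5%, 24.3% and 18% of the summed CPM per kb of the 10 genes at 0, 1 and 3 h in the wild type and 22.5%, 23.2% and 18.3% in aitf1-1asr3-1.

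Other genes of the pathway were counted from lists. Of 25 further ERF-family genes, 20 were tested in seedlings, and in the wild type 14 rose and 2 fell at 1 h while 11 rose at 3 h. ERF98, the neighbour of ERF1 on chromosome 3, rose most, by 6.43 on the log2 scale at 1 h (SE 0.66, edgeR adjusted p = 1.43e-06). Its base was near the floor, at 0.114 to 0.311 CPM at 0 h against 9.98 to 23.8 CPM at 1 h. RAP2.3, a hypoxia-response ERF, fell by 1.01 (SE 0.17, edgeR adjusted p = 0.000152). Among 15 genes of the ethylene, jasmonate and MAP kinase pathways upstream of ERFs, 8 rose and 2 fell at 1 h. The kinase genes MKK4 and MKK5 rose by 2.31 (SE 0.20) and 1.16 (SE 0.13) on the log2 scale, and the ethylene regulators EIL1 and EIN2 fell by 0.69 (SE 0.09) and 0.43 (SE 0.07), with edgeR adjusted p-values of 3.37e-07, 4.44e-06, 1.53e-05 and 0.000167. Of 10 GCC-box defence genes 5 were tested in seedlings, 1 rose at 1 h and 3 at 3 h, among them the hevein-like gene HEL, by 1.57 on the log2 scale (SE 0.18, edgeR adjusted p = 1.41e-05). The PDF1.2 genes did not pass the low-count filter in seedlings. All 5 of 5 genes listed as targets of stress ERFs rose at both times. GA2OX6, a gibberellin-inactivating enzyme, led them at 1 h at 2.99 (SE 0.36, edgeR adjusted p = 5.91e-06). Outside these lists, 5 of 6 genes of early responses to microbial patterns rose and 1 fell at 1 h. Their median log2 fold change was 3.78. Of 3 touch markers, 1 was called higher and 1 lower at 1 h.

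Between the genotypes, 0 genes of any of these lists were called at a single time. Over the mean of the 3 times, the ethylene regulator EIN3 was 0.19 lower (SE 0.04, edgeR adjusted p = 0.021) and the jasmonate regulator MYC2 0.33 lower (SE 0.06, edgeR adjusted p = 0.0125) on the log2 scale in aitf1-1asr3-1, where none of the 10 ERF genes was called.

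To place the time courses, centred log2 CPM was compared over the 18 seedling libraries with that of 8506 genes that carry a symbol and average at least 1 CPM, for the 9 genes whose group means spanned at least 1 log2 unit. The genes nearest to ERF11, by the root mean square difference, were CTF2B at 0.25 and the calcium pump gene ACA2 at 0.26. Nearest to ERF5 were the syntaxin gene SYP122 at 0.19 and EXO70B2, an exocyst subunit, at 0.21. ERF1A was nearest to the NAC gene ATAF2 at 0.177 and the kinase gene MKK9 at 0.179. Among the 10 ERF genes themselves, ERF1A lay at 0.27 from both ERF2, with which it shares the 26-base run, and ERF6, with which its longest shared run is 7 bases. ERF11 had no near relative in the group, its smallest difference being 0.68 to ERF5.

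In leaves the question is whether plants with high AITF1 differ in these genes. ERF1 and ERF2 rose in OXAITF1, 2 of 10 called higher where 9.36% of all tested genes were called higher and 19.8% in either direction. The 8 other genes were not called. In simulated leaf counts with only a small part of the genes changed, 9% of 2-fold changes were called and 17.0% of calls were false. Both rates depend on how many genes change, so they do not carry over to the real leaf comparison. An uncalled gene may still differ. ERF1 stood at 0.672 and 0.211 CPM in wild-type leaves and at 3.45 and 2.3 CPM in OXAITF1 (log2 fold change 2.69, SE 0.60, edgeR adjusted p = 0.0447). ERF2 stood at 37.6 and 48.7 CPM in wild-type leaves and at 75.4 and 78.4 CPM in OXAITF1 (log2 fold change 0.83, SE 0.18, edgeR adjusted p = 0.0398). The groups did not overlap for either gene. Both calls were lost without wild-type replicate 1 (edgeR adjusted p = 0.171 for ERF1 and 0.252 for ERF2), without wild-type replicate 2 (edgeR adjusted p = 0.216 and 0.187) and in the fit with a replicate block (edgeR adjusted p = 0.066 and 0.0795).

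3 more genes had groups that did not overlap without being called by edgeR with TMM factors. ERF1A stood at 26.6 and 21.8 CPM in wild-type leaves and at 40.8 and 66.9 CPM in OXAITF1 (log2 fold change 1.15, 95% interval 0.41 to 1.90, edgeR adjusted p = 0.0539). DESeq2 called ERF1A higher (log2 fold change 1.13, DESeq2 adjusted p = 0.00955). ORA59 stood at 6.35 and 7.31 CPM and at 14.1 and 9.79 CPM (log2 fold change 0.81, 95% interval 0.14 to 1.48, edgeR adjusted p = 0.0886). The repressor ERF4 had values in the other direction, 139 and 107 CPM in the wild type and 63.2 and 89.8 CPM in OXAITF1 (log2 fold change -0.68, 95% interval -1.33 to -0.04, edgeR adjusted p = 0.115). In all, 4 of 10 genes lay without overlap above the wild type and 1 below it, where 35.6% and 32.2% of all tested genes did so. Without OXAITF1 replicate 2 the edgeR adjusted p was 0.0265 for ERF1A, 0.0182 for ORA59 and 0.014 for ERF4.

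**Figure D4:**
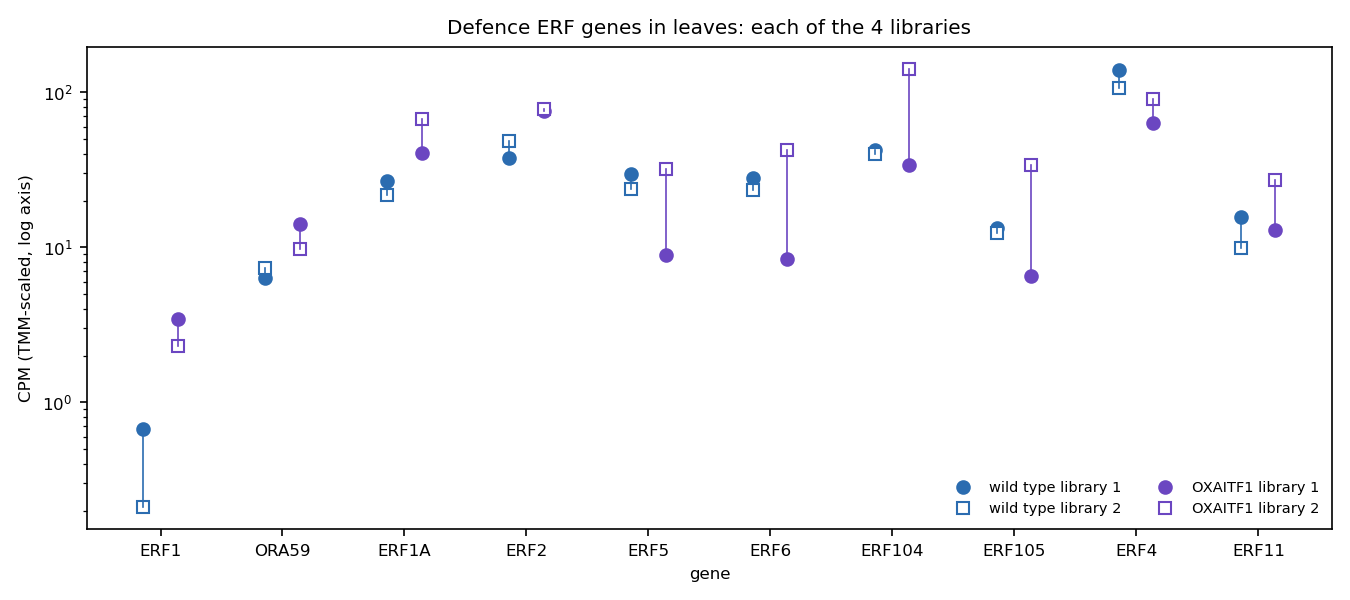
TMM-scaled CPM of the 10 ERF genes on a log axis in the 4 leaf libraries, blue for the wild type and purple for OXAITF1, filled circles for library 1 and open squares for library 2, with a line joining the libraries of a group. The OXAITF1 libraries lie close for ERF2 and far apart for ERF5, ERF6, ERF104 and ERF105.

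The other 5 genes differed between the OXAITF1 libraries by more than between genotypes. ERF104 stood at 34.0 and 141 CPM in OXAITF1 and at 42.6 and 40.0 CPM in the wild type. ERF6 stood at 8.45 and 42.2 CPM against 27.9 and 23.4 CPM, and ERF105 at 6.56 and 33.8 CPM against 13.2 and 12.4 CPM. In each of these the OXAITF1 libraries lay on either side of the wild type. ERF5 stood at 8.94 and 31.8 CPM in OXAITF1 against 29.7 and 23.8 CPM, and ERF11 at 13 and 27.0 CPM against 15.6 and 9.91 CPM.

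OXAITF1 library 2 was thus 5.16-fold above library 1 for ERF105, 4.99-fold for ERF6, 4.16-fold for ERF104, 3.56-fold for ERF5 and 2.08-fold for ERF11, where 8.73% of all tested genes differed by over 1 log2 unit of CPM plus 0.5 between these libraries. The log2 fold changes of these 5 genes ran from -0.39 to 1.09 with none called, and each changed sign under at least 1 alternative. Without OXAITF1 replicate 1, the log2 fold changes of ERF6, ERF11, ERF104 and ERF105 ran from 0.72 to 1.78. Without OXAITF1 replicate 2, those of ERF5, ERF6 and ERF105 ran from -1.64 to -1.01. Each of these fits takes its spread from the wild-type pair alone. Markers of touch responses moved with the same library: 3 of 3 were higher in OXAITF1 library 2, TCH4 with 65.4 and 329 CPM, and their sum was 421 and 902 CPM. Genes of early pattern responses were higher there for 5 of 6, PHI-1 with 2.04 and 32.8 CPM. The part of these in the ERF values was not tested.

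**Figure D5:**
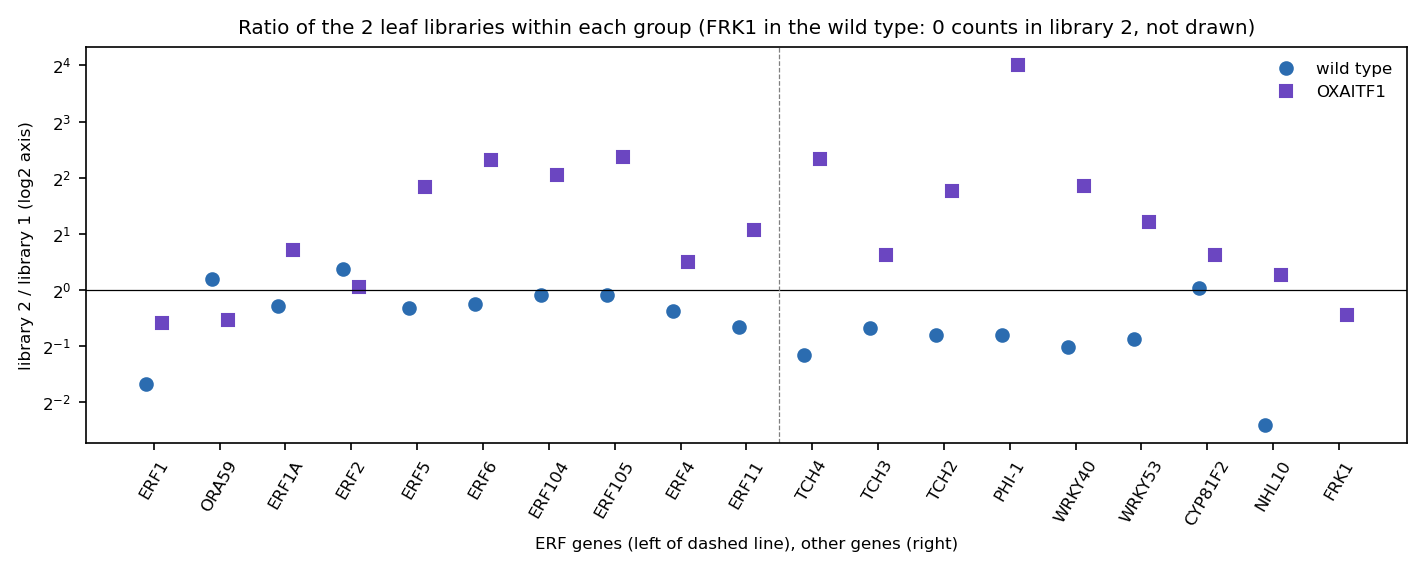
Ratio of library 2 to library 1 within wild-type leaves (circles) and within OXAITF1 leaves (squares), on a log2 axis, for the 10 ERF genes and for 3 touch and 6 early pattern genes. ERF5, ERF6, ERF104 and ERF105 lie at ratios of 3.56 to 5.16 in OXAITF1, while TCH4 lies at 5.03 and PHI-1 at 16.1.

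Markers of photosynthetic cells fell in OXAITF1, 6 of 6 called lower, with sums of 71429 and 71860 CPM in the wild type and 18880 and 20287 CPM in OXAITF1. With library totals alone in place of TMM factors the median log2 fold change of all genes moved from 0.05 to 0.46, and 4 of the 10 ERF genes were called higher, ORA59 and ERF1A in addition. ERF4 stayed below 0 under that scaling (log2 fold change -0.27). Guard cell markers were called for 0 of 4, the trichome marker GL2 was the 1 tested of 2 and was higher, and the part of these markers was not tested.

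Per kilobase, ERF4 led in wild-type leaves with 108 ± 19.6 CPM per kb (SD, n = 2) and overlapped with no other gene, and in OXAITF1 it was at 67.0 ± 16.4 CPM per kb and overlapped with ERF104. ERF1 was the lowest of the 10 in both groups. ERF4 and ERF11 together made 48.1% and 42.2% of the summed CPM per kb of the 10 genes in wild-type libraries 1 and 2. They made 30.3% and 24.1% in those of OXAITF1, without overlap. Neither gene was called, and the log2 fold change was -0.68 for ERF4 and 0.65 for ERF11. ERF104 made 10.9% and 11.9% of the sum in the wild type and 11.2% and 24.1% in OXAITF1, so the share also moved with other members.

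Of the 10 GCC-box defence genes 8 were tested in leaves and 1 was called, the basic chitinase gene CHI-B, a target of ERF1, which was higher in OXAITF1 (edgeR adjusted p = 0.0409) with 0.149 and 0.141 CPM in the wild type, 2 counts in each library, and 4.13 and 1.24 CPM in OXAITF1. The defensin gene PDF1.2A, a target of ORA59, stood at 28.1 and 131 CPM in wild-type leaves and at 32.0 and 92.1 CPM in OXAITF1, and these groups overlapped. Among the 15 upstream genes 2 were called higher, the F-box gene EBF2, by 1.04 (SE 0.17, edgeR adjusted p = 0.0251), and the mediator subunit gene MED25, by 0.80 (SE 0.15, edgeR adjusted p = 0.0325). Of the 15 tested further ERF genes, RAP2.6L was called higher (edgeR adjusted p = 0.0154) with 0.0747 and 0.141 CPM in the wild type, 1 and 2 counts, and 3.69 and 3.03 CPM in OXAITF1. Of the stress-ERF targets 0 of 5 were called.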

How the data were processed

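The authors deposited whole-number read counts per gene, not normalized, for 4 leaf and 18 seedling libraries. The submitters' processing notes name HISAT2 2.1.0, Subread 1.6.5 with featureCounts, and TAIR10. Annotation release, strandedness and treatment of multiply matching reads were not given in the sources used here. From the counts, edgeR 4.0.16 in R 4.3.3 (limma 3.58.1) gave filterByExpr filtering, TMM factors, quasi-likelihood fits and two-sided p-values with Benjamini-Hochberg adjustment over all tested genes within each of 13 comparisons, with a call at 0.05. Leaves (2 residual degrees of freedom) and seedlings (12) were fitted apart, with no replicate term. SEs come from the F statistics. DESeq2 1.42.0, other scalings and filters, a replicate block and leaving out each library were alternatives. Scripts were tested on simulated counts in which only a small part of the genes was changed, and the rates hold for that setting. For the leaf comparison 84% of 4-fold and 9% of 2-fold changes were called, and 17.0% of the calls were false. For wild-type seedlings at 1 h against 0 h these values were 94%, 83% and 4.84%. For the genotypes at 1 h they were 98%, 83% and 4.23%. Replicates of a group differed beyond sampling noise (chi-square divided by its degrees of freedom, 6.97 to 75.6), so none was a copy.

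Genes named beyond the 10 follow a rule: per list and comparison at most the 2 largest and 2 smallest called genes averaging at least 1 CPM. PHI-1, TCH4, PDF1.2A and the reading of ERF98 as a neighbour of ERF1 were added after values were seen, as was the search for shared runs of bases. The members and lists were chosen with earlier results of these data known. Gene models and upstream windows come from the RefSeq TAIR10.1 assembly and annotation. The likeness measure used log2 of CPM plus a pseudocount of 0.5.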

Additional observations from a re-analysis of the deposited data

How the results depend on the processing

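Under other scalings, filters, tools and fits 9 of the 10 genes were called at 1 h and 10 at 3 h in wild-type seedlings, and 0 between the genotypes at every time, in each. In aitf1-1asr3-1 a fit of the compared libraries only called 9 in place of 8 at 1 h, adding ERF105, and 4 in place of 3 from 1 to 3 h, adding ORA59. Leaving out 1 library gave 8 to 9 and 9 to 10 in these comparisons of the wild type, 2 to 3 from 1 to 3 h, 8 at 1 h, 9 to 10 at 3 h and 3 to 4 from 1 to 3 h in aitf1-1asr3-1, and 0 between genotypes. The leaf count of 2 was 4 with library totals alone, 3 with DESeq2 and 0 to 8 when 1 library was left out. A fit with the lone library of a group assumes that it varies like the others. Reversed values were those of ERF6, 0.72 (edgeR adjusted p = 0.0205) without OXAITF1 replicate 1 in a range from -1.64, and of ERF105, -1.01 (edgeR adjusted p = 0.0183) without OXAITF1 replicate 2 in a range up to 1.404; the cause was not tested. Of 1879 values of single genes, 1846 kept their call and direction or were uncalled in both fits, 16 lost and 15 gained a call, and 94 uncalled ones had another sign.

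With a replicate block 0 of 10 genes were called in leaves, and every seedling count of the 10 stayed the same. The labels do not say what a replicate number marks. In seedlings 19 of 45 same-numbered pairs correlated above 0.1, and the highest correlation of 13 of 18 libraries was to the same number. The median correlation there was 0.073 for same-numbered pairs and -0.049 for the other pairs. Whether the numbers pair the seedling samples was not tested further. In leaves the highest correlation was to the same number for 0 of 4 libraries. With 2 libraries per group the leaf medians were -0.087 and 0.087, equal in size and opposite in sign, so they cannot decide the question.

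Counts over all tested genes moved more. In leaves 3692 became 0 with the block and 6414 with library totals alone (5287 higher and 1127 lower, against 1745 and 1947), and ran from 0 to 6164 when 1 library was left out. Leaving out 1 library gave 3216 to 6312 of 5584 for the wild type at 3 h, 3451 to 4884 of 5195 from 1 to 3 h, and 2593 to 3458 of 4098 and 3621 to 4460 of 5470 for the same steps in aitf1-1asr3-1. Other settings gave as few as 3293 at 3 h and 3282 from 1 to 3 h in the wild type. Between genotypes 75, 55, 58 and 233 calls (0, 1, 3 h and their mean) became 111, 110, 101 and 508 with DESeq2, while a fit of the compared libraries only gave 34, 17 and 28 at 0, 1 and 3 h. Library totals alone turned the split of higher and lower calls from 2719 and 2476 to 2023 and 3233 in the wild type and from 2903 and 2567 to 1807 and 3689 in the double mutant from 1 to 3 h, and from 2783 and 1315 to 2276 and 2341 in the double mutant at 3 h. Depth limits ERF1 most, at 0.211 to 3.60 CPM.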
